A study of Homo sapiens with 14 samples.

Results

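The MAGE antigen family was followed through 8 named genes: MAGEA1, MAGEA3, MAGEA4, MAGEA6, MAGEA10, MAGEA12, MAGED1 and MAGED2. The cells were UM1, an established human line from a squamous carcinoma of the tongue. The genes were found by symbol in 2 deposited tables of TPM, transcript abundance scaled by length and to a fixed total in each library. The tables share 14951 listed genes. MAGEA1, MAGEA4 and MAGED2 are listed in both tables, 3 of 8. MAGEA3, MAGEA6, MAGEA10, MAGEA12 and MAGED1 are listed in neither table. The tables hold 0 values equal to 0, so genes with 0 in some library may have been left out. The knockdown table also lists 0 mitochondrially encoded genes, against 16 in that of the overexpression. Why these 5 genes are missing is therefore not known, and they have no value here. The family was selected on the TPM of MAGEA1 under ΔNp63α and vector, where it was far lower under ΔNp63α, so that contrast is described for the members without a test.

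The first experiment set 2 libraries of UM1 cells carrying a short hairpin against PRMT5 (shPRMT5), an arginine methyltransferase of histones and splicing proteins, beside 2 libraries carrying a hairpin against GFP (shGFP). The second set 3 libraries of UM1 cells overexpressing ΔNp63α, written DNp63α in the sample titles, beside 3 libraries carrying the vector alone. ΔNp63α is the main TP63 isoform of basal cells in stratified epithelium. The stated question of the series was how PRMT5 acts on gene regulation by ΔNp63α, and 4 CUT&Tag samples of shPRMT5 and shGFP cells are not analysed here. The titles call the replicates biological but name no separate cultures, and the p-values therefore reflect only library-to-library spread, which may be technical. All 10 libraries come from 1 line, and the labels do not say whether clones or pools of cells were used.

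MAGE proteins share a MAGE homology domain, through which many of them bind RING-type ubiquitin ligases and alter what those ligases act on. The type I genes, MAGEA, MAGEB and MAGEC, lie on the X chromosome, are read mainly in male germ cells, and come on in many tumours, squamous carcinomas of the head and neck among them, when DNA methylation is lost at their promoters; peptides of these proteins can then be shown to T cells. The type II genes, such as MAGED1, MAGED2 and MAGEF1, are read in many normal tissues. MAGEA1 was the first of these antigens to be found in melanoma, and its protein binds the transcription cofactor SNW1. MAGEA4 binds the proteasome-linked protein PSMD10 (gankyrin) and is a target of engineered T cells. MAGED2 acts in salt handling of the kidney around birth.

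The promoter windows of MAGEA3, MAGEA4, MAGEA6 and MAGEA12 shared a short string that those of MAGED1 and MAGED2 lacked. RefSeq windows of 300 bases on GRCh38.p14, from 250 before to 50 after a transcript start, were held for 6 of the 8 members, all but MAGEA1 and MAGEA10. The 120 bases that end at the start are printed for those MAGEA members, for MAGEB2, the other type I gene with the lowest values under ΔNp63α, and for MAGED2 as the type II member. Capitals mark GGATGTG, a string chosen after these windows were read. It holds GGAT, one of the core forms that Ets factors bind. The stretches lie at chrX:151912354-151912473 on the plus strand for the first of the MAGEA4 starts, chrX:152698674-152698793 on the plus strand for MAGEA3 and chrX:152769690-152769809 on the minus strand for MAGEA6. Those of the others lie at chrX:152733637-152733756 on the plus strand for MAGEA12, chrX:30215443-30215562 on the plus strand for MAGEB2 and chrX:54807625-54807744 on the plus strand for MAGED2.
MAGEA4: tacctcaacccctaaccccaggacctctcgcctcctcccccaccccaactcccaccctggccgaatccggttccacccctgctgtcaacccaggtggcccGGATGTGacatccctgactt
MAGEA3: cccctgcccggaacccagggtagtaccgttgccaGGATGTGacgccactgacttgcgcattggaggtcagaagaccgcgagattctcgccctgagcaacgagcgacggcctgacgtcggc
MAGEA6: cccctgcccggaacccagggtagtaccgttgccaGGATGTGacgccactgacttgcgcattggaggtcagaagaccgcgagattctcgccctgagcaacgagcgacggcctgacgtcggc
MAGEA12: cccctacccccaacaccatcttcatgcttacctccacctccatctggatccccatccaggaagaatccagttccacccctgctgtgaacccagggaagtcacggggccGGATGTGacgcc
MAGEB2: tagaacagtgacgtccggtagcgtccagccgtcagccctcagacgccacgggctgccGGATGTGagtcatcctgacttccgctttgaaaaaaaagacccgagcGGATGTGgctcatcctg
MAGED2: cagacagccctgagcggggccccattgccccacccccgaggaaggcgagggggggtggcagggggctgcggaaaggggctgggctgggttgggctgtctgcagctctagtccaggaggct

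MAGEA3 and MAGEA6 carried the same 120 letters. The first letter of GGATGTG stood 86 bases before the start in both, 20 bases before it in MAGEA4 and 12 bases before it in MAGEA12. MAGEB2 carried the string at 63 and at 17 bases before its start. On either strand, GGATGTG was present in 16 of 16 windows of 10 MAGEA genes, MAGEA1 and MAGEA10 not among them, in 5 of 14 windows of 12 MAGEB and MAGEC genes, and in 0 of 14 windows of 11 type II genes, against 4.29% of 35116 windows of all genes. These counts include the windows read before the string was chosen, those of MAGEB2 and MAGED2 among them. The MAGEA windows include 5 of MAGEA4, 2 overlapping ones of MAGEA12 and those of MAGEA3 and MAGEA6 with the same 120 letters. The counts are therefore a description and no test. At least 2 copies, as in MAGEB2, stood in 0.137% of all windows, and this too is no test. CCGGAA, another Ets core, stood in windows of MAGEA3, MAGEA6, MAGED1 and MAGED2, against 17.2% of all windows, and GGGCGG, the core of SP1 sites, in windows of MAGEA4, MAGED1 and MAGED2, against 45.0% of all. GGATGTG shares no letters in these stretches with CCGGAA. A p53-family half-site was found in none of the members' windows and in 6.63% of all windows. A match describes the letters only, and the lack of one says nothing of the factor.

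The libraries answered to their labels as follows. PRMT5 stood at 29.3 and 33.6 TPM in the shPRMT5 libraries and at 143 and 126 TPM in the shGFP libraries. TP63, read as 1 gene with no split by isoform, stood at 152 to 168 TPM under ΔNp63α and at 82.3 to 138 TPM under vector, with a log2 fold of 0.63 (limma adjusted p = 0.03). PRMT5 itself stood at 97.0 to 131 TPM under ΔNp63α and at 61.1 to 95.4 TPM under vector. The 15 squamous epithelial markers examined were all listed in both tables. Their summed level was 14350 to 14440 TPM under shPRMT5 against 13440 to 15110 TPM under shGFP. It was 19470 to 35360 TPM under ΔNp63α against 9052 to 15940 TPM under vector. The single markers did not all follow that sum, as 6 of the 15 were called higher under ΔNp63α and 3 lower. Of all genes tested there, 7.34% were called higher and 14.1% lower. The higher share of the markers was thus well above that of all genes, and the lower share was closer to it. Without ΔNp63α replicate 3, 3 markers were called higher. KRT14 averaged 13770 TPM under ΔNp63α against 3682 TPM under vector, and KRT5 averaged 7021 against 2544 TPM. LAMB3 was among the lower ones (log2 fold -1.05, limma adjusted p = 0.000617). In the knockdown, 2 of 13 tested markers were called higher and 0 lower, against 15.1% and 3.48% of all genes.

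Of 7 melanocyte markers, MLANA, TYR, TYRP1, DCT and SOX10 were not listed in either table, and of 14 male germ cell markers DDX4, DAZL, SYCP1, MAEL, PRM1 and 7 others were not listed in either. Summed germ cell markers ranged from 8.63 to 14.3 TPM under ΔNp63α and from 4.10 to 6.40 TPM under vector, carried mostly by DMRT1. Of 14 immune, endothelial and fibroblast markers 6 were listed in the overexpression table, PTPRC, CD3E and CD68 not among them, and their sum was 45.2 to 65.0 TPM under ΔNp63α against 32.6 to 43.9 TPM under vector, with LUM called higher (log2 fold 0.97, limma adjusted p = 0.0307). The ΔNp63α and vector values of LUM overlapped. Its call was lost without ΔNp63α replicate 2, ΔNp63α replicate 3, vector replicate 1 or vector replicate 3. In the knockdown 8 of these 14 markers were listed, with sums of 11.5 to 14.5 TPM under shPRMT5 and 8.55 to 12.0 TPM under shGFP. The part of these markers in the results was not tested.

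The 3 listed members were all well above the 1 TPM needed for testing. MAGED2 led in every group. Under shPRMT5 it was followed by MAGEA1 and then MAGEA4, under shGFP by MAGEA4 and then MAGEA1, and within each of these groups no neighbours in the order overlapped. Under vector the order was again MAGED2, MAGEA1, MAGEA4 with no overlap. Under ΔNp63α, MAGED2 and MAGEA4 overlapped and MAGEA1 lay far below both. TPM is scaled by length, so these levels can be set against each other within a library. The plot of levels by library shows the members with the other MAGE genes that passed in both tables and with SPANXB1.

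**Figure D1:**
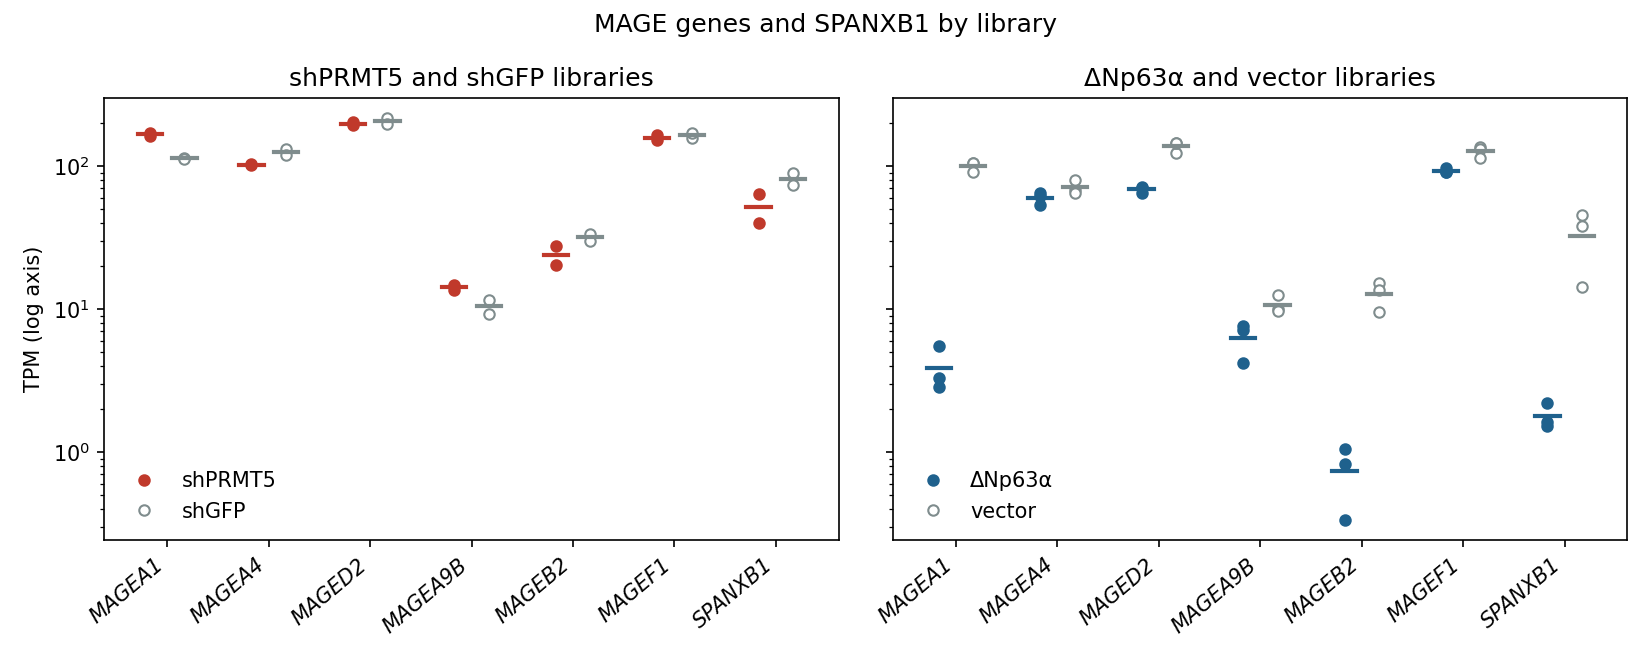
TPM (log axis) of 6 MAGE genes and SPANXB1 in each library, with shPRMT5 (filled) and shGFP (open) on the left panel and ΔNp63α (filled) and vector (open) on the right; points are libraries and bars are group means. MAGEA1 lies at 2.86 to 5.49 TPM under ΔNp63α and above 90 TPM under vector, while MAGEA4 stays above 53 TPM in every library of both panels.

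Knockdown of PRMT5 went with more MAGEA1 RNA. MAGEA1 (ENSG00000198681) stood at 170.0 and 163.0 TPM in the shPRMT5 libraries, against 114.4 and 112.2 TPM in the shGFP libraries. Both shPRMT5 values lay above both shGFP values, and the mean was 1.47 times as high. The log2 fold was 0.55 (SE 0.16, limma adjusted p = 0.0181, n = 2 each). All genes together had a median log2 fold of 0.25 in this experiment, and MAGEA1 lay 0.30 above that median. The call ended when libraries were rescaled by median of ratios, which brought the median of all genes to 0.01 and MAGEA1 to 0.28 (limma adjusted p = 0.308), after quantile normalization (0.45), with no intensity trend, and without shPRMT5 replicate 1 (0.52, limma adjusted p = 0.239) or shPRMT5 replicate 2 (0.58, limma adjusted p = 0.345). In bulk RNA, more RNA per cell and more cells that express a gene cannot be told apart.

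MAGEA4 and MAGED2 did not move with MAGEA1 in the knockdown. MAGEA4 (ENSG00000147381) stood at 102.5 and 102.0 TPM in the shPRMT5 libraries, against 132.1 and 119.2 TPM in the shGFP libraries. Its shPRMT5 values lay below both shGFP values. The log2 fold of -0.29 (SE 0.16) was not called (limma adjusted p = 0.208), but it was called after rescaling (-0.56, limma adjusted p = 0.0424) and without shGFP replicate 2 (-0.37, limma adjusted p = 0.0278).

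MAGED2 (ENSG00000102316) stood at 201.4 and 194.5 TPM under shPRMT5, against 216.1 and 196.9 TPM under shGFP. These groups overlapped, and the log2 fold was -0.06 (SE 0.15, limma adjusted p = 0.813) and lay at 0.007 without shGFP replicate 1. Of the 3 members tested, 1 was called higher and 0 lower. Of 12635 genes tested in the knockdown, 18.6% were called, 15.1% higher and 3.48% lower. MAGEA1 did not overlap on the higher side, as did 49.0% of all genes, and MAGEA4 did not overlap on the lower side, as did 14.0%. At these rates, 1 higher call among 3 genes does not set the members apart from the rest of the table.

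Overexpression of ΔNp63α went with a far lower level of MAGEA1. It stood at 2.86, 3.28 and 5.49 TPM in the ΔNp63α libraries, against 105.6, 104.6 and 90.36 TPM in the vector libraries. The lowest vector library was far above the highest ΔNp63α library. The mean was 3.88 ± 1.41 TPM under ΔNp63α and 100.2 ± 8.54 TPM under vector (SD, n = 3 each), so that the vector mean was 25.8 times the ΔNp63α mean. The log2 fold was -4.41, and it ranged from -4.63 to -4.26 with each library left out in turn. MAGEA1 ranked 3rd from the lowest log2 fold of 13382 genes. The keratin genes KRT19 (-6.43) and KRT7 (-4.72) ranked below it, and SERPINB3 (-3.80), a serpin of squamous cells, ranked 5th. These are the values the choice rested on.

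MAGEA4, which lies on the same arm of the X chromosome, kept most of its level. It stood at 53.10, 64.95 and 61.37 TPM under ΔNp63α, against 67.59, 80.25 and 65.12 TPM under vector. The groups were apart only by the gap between 64.95 and 65.12 TPM. The log2 fold was -0.24 and ranged from -0.30 to -0.15 with each library left out.

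MAGED2 was lower in every ΔNp63α library. It stood at 70.92, 70.57 and 64.34 TPM under ΔNp63α, against 122.7, 144.7 and 145.0 TPM under vector. All ΔNp63α values lay well below all vector values, with a ratio of means of 0.499 and a log2 fold of -0.99. Of the 3 members, 2 were past the threshold on the lower side and all 3 were without overlap on the lower side. Of all genes tested in the overexpression, 21.5% were called, 7.34% higher and 14.1% lower, and 14.2% were without overlap on the higher side and 23.7% on the lower. Nothing is read from the members' counts here, since this contrast chose the family.

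**Figure D2:**
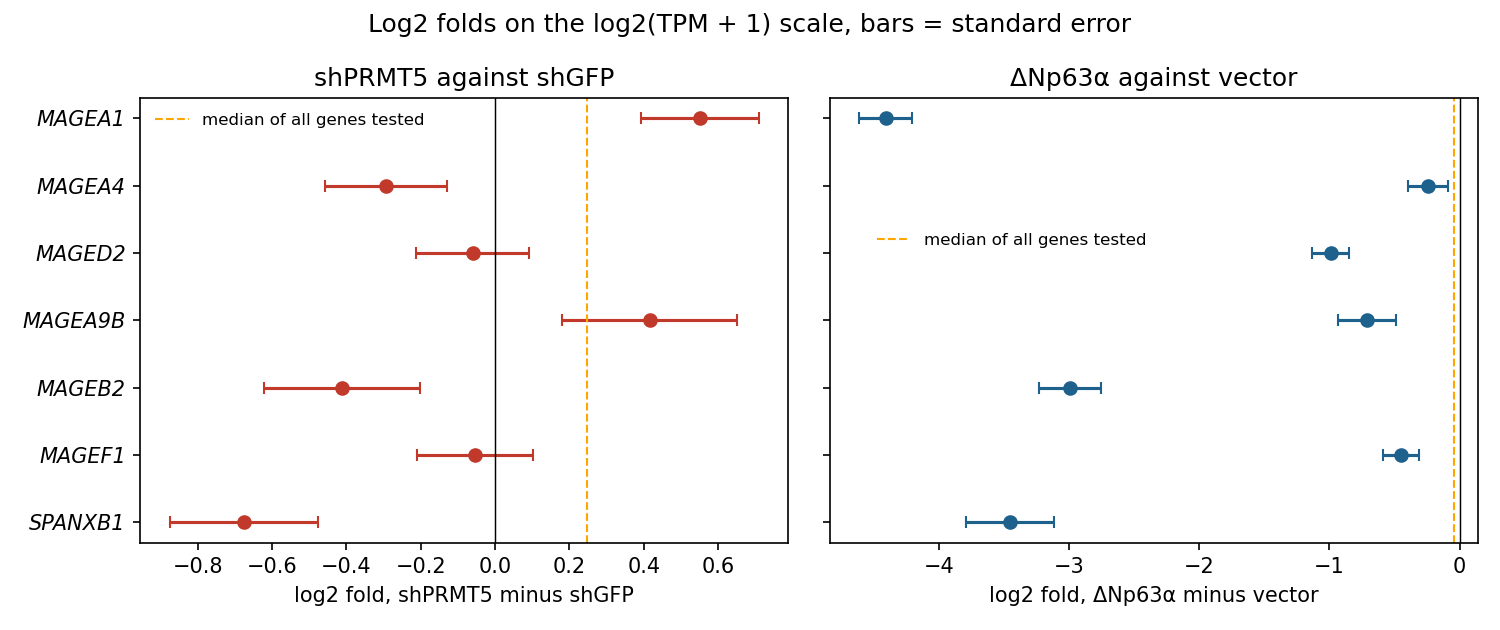
Log2 folds on the log2(TPM + 1) scale of 6 MAGE genes and SPANXB1, shPRMT5 minus shGFP on the left and ΔNp63α minus vector on the right, with horizontal axes of different range; bars are standard errors of the limma fit and the dashed line is the median of all genes tested. MAGEA1 is at 0.55 on the left and -4.41 on the right, while MAGEA4 is at -0.29 and -0.24.

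Ratios within a library do not depend on how the library was scaled. MAGEA1 was 1.66 and 1.60 times MAGEA4 in the shPRMT5 libraries, against 0.866 and 0.942 times in the shGFP libraries. The order of the pair was thus turned round between these groups in both replicates. The same ratio was 0.0540, 0.0505 and 0.0895 in the ΔNp63α libraries, against 1.56, 1.30 and 1.39 in the vector libraries. Relative to MAGED2, MAGEA1 stood at 0.844 and 0.838 under shPRMT5 against 0.529 and 0.570 under shGFP, and at 0.0404, 0.0465 and 0.0853 under ΔNp63α against 0.861, 0.723 and 0.623 under vector. MAGEA4 relative to MAGED2 went the other way in both experiments, at 0.509 and 0.524 under shPRMT5 against 0.611 and 0.605 under shGFP, and at 0.749, 0.921 and 0.954 under ΔNp63α against 0.551, 0.555 and 0.449 under vector. The vector and shGFP libraries, both controls of the same line, differed in the order of MAGEA1 and MAGEA4; their tables were normalized separately, and this was not tested.

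**Figure D3:**
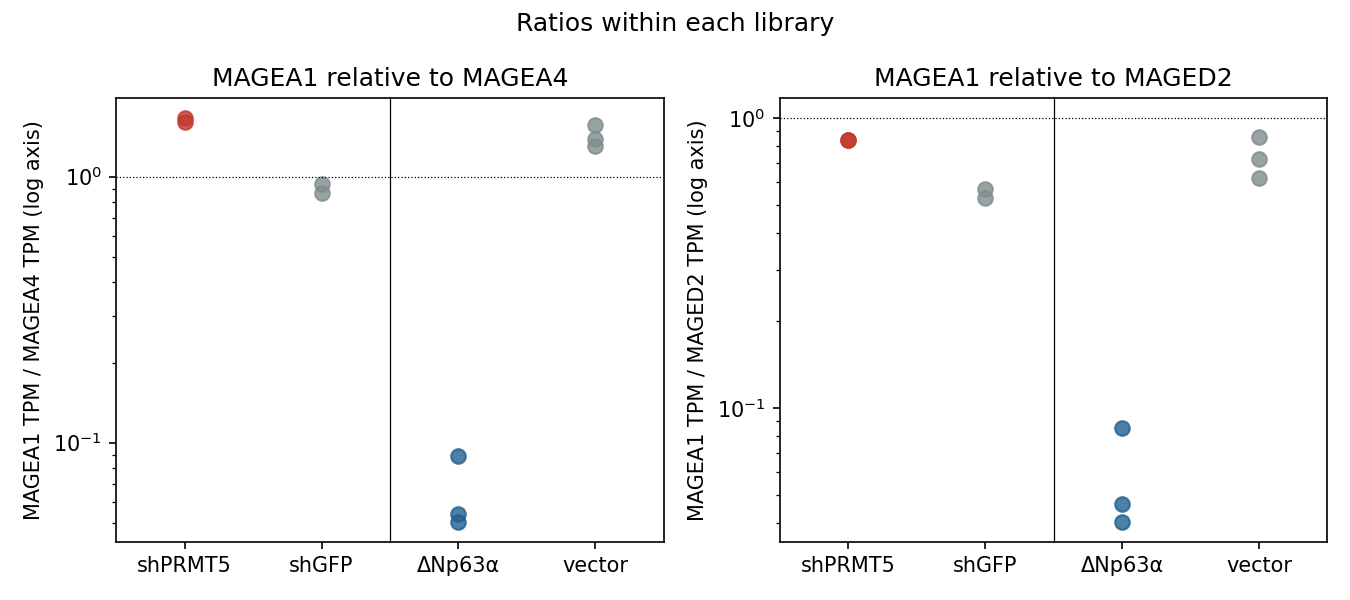
Ratio of MAGEA1 to MAGEA4 (left) and to MAGED2 (right) in each library, log axes, with the 2 experiments separated by a vertical line; each point is 1 library and the dotted line marks equal TPM. The shPRMT5 points lie above the shGFP points in both panels, and the ΔNp63α points, all under 0.09, lie far below the vector points.

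Other MAGE genes were few in these tables. MAGEB2, a type I gene whose protein represses the stress granule factor G3BP1, stood at 0.333, 1.05 and 0.817 TPM under ΔNp63α, against 15.3, 13.6 and 9.49 TPM under vector. No ΔNp63α library came near a vector library, and the log2 fold was -2.99 (SE 0.24, limma adjusted p = 7.94e-06, n = 3 each). With a pseudocount of 0.1 in place of 1 it was -4.04. In the knockdown MAGEB2 stood at 20.4 and 27.4 TPM under shPRMT5, against 33.6 and 30.1 TPM under shGFP, and its log2 fold of -0.41 (SE 0.21) was not called (limma adjusted p = 0.165) except after rescaling (-0.68, limma adjusted p = 0.0332).

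MAGEA1 was 8.61, 3.13 and 6.71 times MAGEB2 under ΔNp63α, against 6.92, 7.68 and 9.52 times under vector. These groups overlapped, and the ΔNp63α ratios were spread widely, with MAGEB2 near 1 TPM or below. In the knockdown MAGEA1 was at 8.32 and 5.95 times MAGEB2 under shPRMT5 against 3.40 and 3.73 times under shGFP.

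MAGEA9B stood at 7.58, 7.08 and 4.19 TPM under ΔNp63α, against 12.5, 9.99 and 9.66 TPM under vector. The groups did not overlap, and the log2 fold was -0.71 (SE 0.22, limma adjusted p = 0.0396). That call held in 6 of 14 alternatives and in 1 of the 6 fits that left out 1 library, the one without ΔNp63α replicate 1. Under shPRMT5 MAGEA9B stood at 13.7 and 14.8 TPM, against 11.6 and 9.27 TPM under shGFP (log2 fold 0.42, limma adjusted p = 0.214). MAGEA9B has a near-identical copy, MAGEA9, which the knockdown table lists at 0.159 to 1.50 TPM, so how reads were divided between the pair is uncertain.

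MAGEF1, a type II gene on chromosome 3 whose protein joins the NSMCE1 ligase, stood at 90.9, 90.6 and 96.7 TPM under ΔNp63α, against 135.0, 132.2 and 114.2 TPM under vector. Its log2 fold was -0.45 (SE 0.14, limma adjusted p = 0.0394), and the call was lost after rescaling, with no intensity trend and on leaving out any 1 of the 6 libraries (limma adjusted p from 0.0585 to 0.124). In the knockdown it was at -0.05 (limma adjusted p = 0.836). NSMCE3, the MAGE subunit of the SMC5/6 complex, was not called under ΔNp63α (log2 fold -0.22, limma adjusted p = 0.454), and MAGEE1 was under 1 TPM in every library.

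X-linked cancer-testis genes outside the MAGE family were mostly not listed. SPANXB1, a sperm protein gene of the X chromosome, was the one tested in both tables. It stood at 1.53, 2.21 and 1.61 TPM under ΔNp63α, against 45.4, 38.3 and 14.3 TPM under vector (log2 fold -3.45, SE 0.34, limma adjusted p = 4.41e-05). Vector replicate 3 was well below the other vector libraries and still above every ΔNp63α library. Under shPRMT5 it stood at 40.2 and 63.2 TPM, against 73.7 and 89.4 TPM under shGFP (log2 fold -0.68, limma adjusted p = 0.0201), a call that was lost without either shPRMT5 library (-0.36 without replicate 1), with no filter and with no intensity trend.

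Among further genes of the SPANX cluster tested in the knockdown, SPANXA1 (log2 fold -0.90, limma adjusted p = 0.0247) and SPANXD (-0.95, limma adjusted p = 0.0154) were lower, SPANXC was higher (0.83, limma adjusted p = 0.0402) and SPANXA2 was not called (0.65, limma adjusted p = 0.161). The SPANXA2 value rested on single libraries, from 0.066 to 1.242 with each left out, and was called without shGFP replicate 2 (1.242, limma adjusted p = 0.0139). SPANXA1 lost its call without shPRMT5 replicate 2 or shGFP replicate 2, and SPANXC and SPANXD each lost theirs without shPRMT5 replicate 1, shPRMT5 replicate 2 or shGFP replicate 2. With no filter on low values all 3 calls were lost, that of SPANXA1 also with no intensity trend, and that of SPANXC also after rescaling (0.63) and quantile normalization (0.55). These genes are near-identical copies, so their split of reads is uncertain. CSAG3, which lies among the MAGEA genes, stood at 2.13 and 1.96 TPM under shPRMT5 against 1.20 and 0.269 TPM under shGFP and was not called (log2 fold 0.87, limma adjusted p = 0.0535), but was without shGFP replicate 1 (1.26).

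X-linked genes had a lower median than other genes under ΔNp63α, and most of the genes above are X-linked. Of 386 tested X-linked genes, 147 were called lower (38.1%) and 17 higher, with a median log2 fold of -0.43. On the other chromosomes 13.7% were called lower, with a median of -0.03, and the medians of the 22 autosomes ran from -0.29 to 0.10. The shift was not even along the chromosome: the running median in the plot of X-linked genes lay near or just above 0 over a stretch of the long arm and below 0 elsewhere. In the knockdown the X median was 0.30 against 0.26 elsewhere. Gene order was taken from the RefSeq table of GRCh38.p14. It placed 350 tested X-linked genes of the knockdown and 367 of the overexpression.

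Around each MAGE gene, windows of 20 tested genes on each side were taken, a span chosen after seeing the data. Around MAGEA1 27 of 40 neighbours were called lower under ΔNp63α, with a median log2 fold of -0.83, and MAGEA1 lay at -3.58 relative to that median. Around MAGEA4 29 of 40 neighbours were lower, with a median of -0.84, and MAGEA4 lay 0.60 above it. The windows of MAGEA4 and MAGEA1, at places 316 and 323 of 367 in order, share most of their genes. So do those of SPANXB1 and MAGEA9B, at places 303 and 308. MAGED2 lay at -0.53 relative to its neighbours, whose median was -0.46. MAGEB2, on the short arm, lay at -2.62 relative to a neighbour median of -0.37, MAGEA9B at -0.03 relative to -0.68, and SPANXB1 at -2.77 relative to -0.68. On chromosome 3 the neighbours of MAGEF1 had a median of 0.0006. In the knockdown the neighbour medians of these genes ran from 0.18 to 0.48. The part of the level of the whole chromosome in the values of single genes was not tested.

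Genes directly beside MAGEA1 had smaller folds, but most were too low to show a fold like its own. PNMA6A, TREX2 and ZNF275 averaged 1.50, 1.51 and 5.18 TPM under vector. On the log2(TPM + 1) scale such levels leave no room for -4.41, so these genes cannot be compared with MAGEA1. ZNF185 averaged 47.8 TPM under vector and had that room. ZNF185 (log2 fold -1.17, limma adjusted p = 0.000295) and ZNF275 (-0.87, limma adjusted p = 0.0217) were lower under ΔNp63α, while PNMA6A (0.43, limma adjusted p = 0.201) and TREX2 (-0.32, limma adjusted p = 0.304) were not called. ZNF275 lost its call without ΔNp63α replicate 2, ΔNp63α replicate 3, vector replicate 1 or vector replicate 3.

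**Figure D4:**
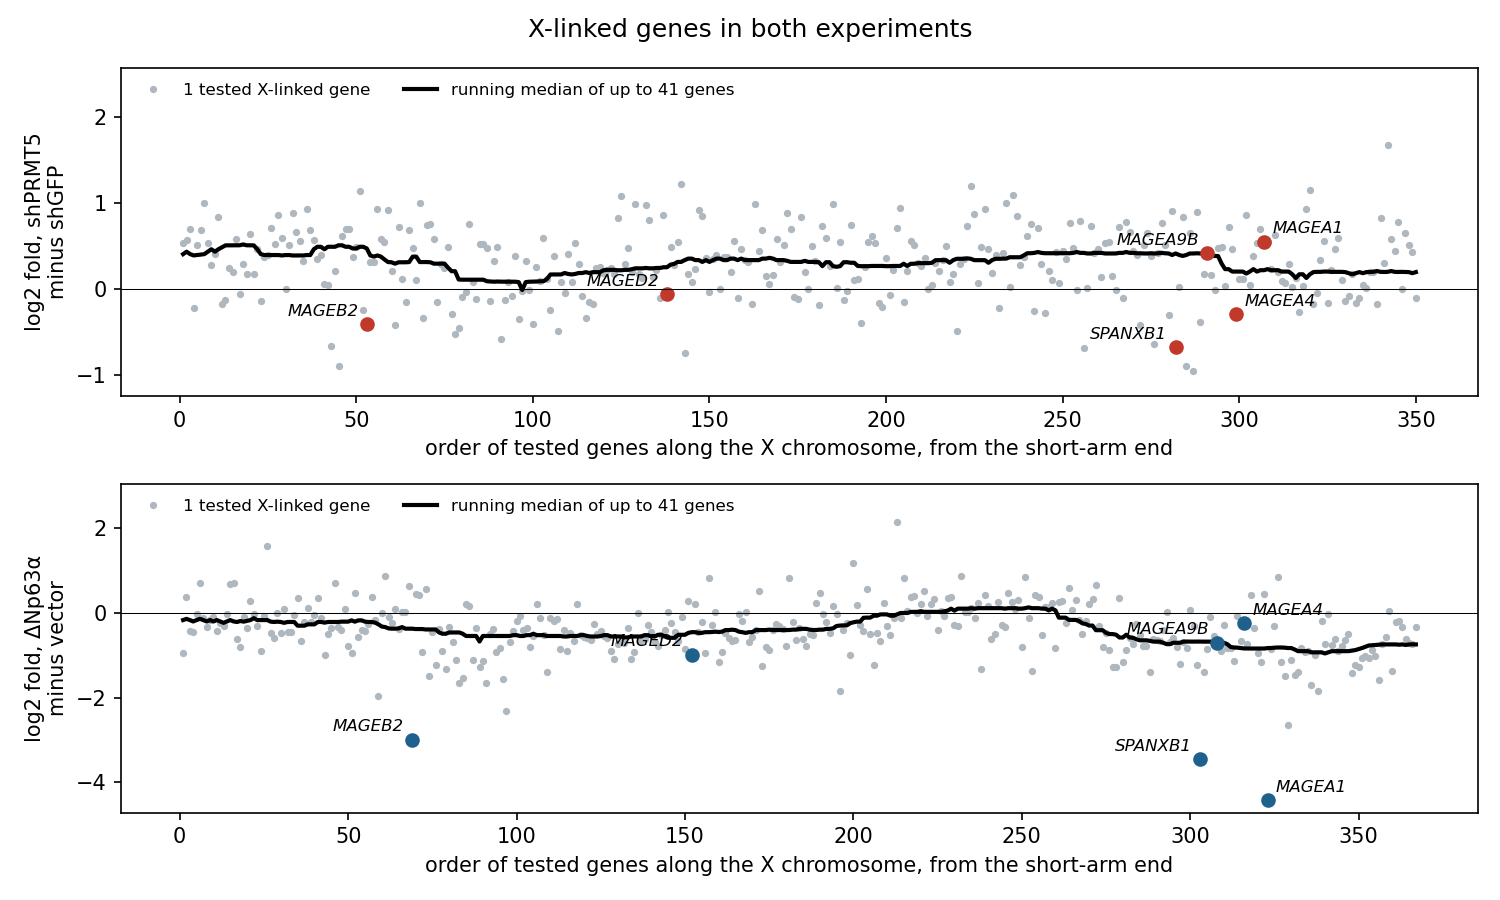
Log2 folds of tested X-linked genes in their order along the chromosome, shPRMT5 minus shGFP above and ΔNp63α minus vector below; each dot is 1 gene, the line is a running median over up to 41 genes, and named genes are drawn large. In the lower panel MAGEA1 (-4.41), SPANXB1 (-3.45) and MAGEB2 (-2.99) lie far under the line, MAGEA9B on it and MAGEA4 above it.

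Likeness of pattern was measured as the Euclidean distance of log2(TPM + 1) over the 10 libraries after centring in each table, among 11999 genes. Among the 5 genes nearest to MAGEA1 were KRT7 (distance 1.67), LOXL2, a lysyl oxidase (1.73), the annexin ANXA10 (1.86) and the clock-linked repressor BHLHE40 (1.87). Each of these was far lower under ΔNp63α, the difference that dominates this distance. In the knockdown none of them was called higher as MAGEA1 was: KRT7 was lower (log2 fold -0.87, limma adjusted p = 0.000338), and LOXL2 (-0.39), ANXA10 (0.11) and BHLHE40 (0.16) were not called. LOXL2 was called lower after rescaling (-0.66) and without shGFP replicate 2 (-0.55), and ANXA10 and BHLHE40 turned negative after rescaling (-0.15 and -0.11). Nearest to MAGEA4 were the initiation factor EIF1 (0.207) and PRR13 (0.212), and nearest to MAGED2 were AMPD3 (0.179), an AMP deaminase, and RPL10P16 (0.204).

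Cancer-testis genes outside the X chromosome did not all go the way of MAGEA1. Under ΔNp63α, 1 of 23 tested was higher and 4 lower, with a median log2 fold of -0.09 against -0.04 for all genes. That is 4.35% higher and 17.4% lower, against 7.34% and 14.1% of all genes. The lower ones were LEMD1 (-1.53), DPPA2 (-1.18), PRAME (-0.74), a retinoid receptor repressor and tumour antigen, and SPAG9 (-0.68), and 2 were called lower without ΔNp63α replicate 1. In the knockdown 4 of 22 were higher and 1 lower, with a median of 0.44, and LEMD1 was lower there too (-1.40, limma adjusted p = 0.00141). The calls in the knockdown, 18.2% higher and 4.5% lower, lay near the 15.1% and 3.48% of all genes. After rescaling 0 were higher and 2 lower, against 480 and 886 of all 12635 genes tested. The cancer-testis genes called higher before rescaling were ATAD2 (0.73), NUF2 (0.73), DCAF12 (0.68) and 1 more.

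Partners and targets of MAGE proteins were of mixed direction. Under ΔNp63α, 4 of 40 were higher and 6 lower. Both shares lay near those of all genes, 7.34% higher and 14.1% lower. The median log2 fold was -0.02, against -0.04 for all genes. Among the lower were the ligase TRIM31 (-2.52), a partner of MAGE-B1, and UBE2H (-0.82), a ubiquitin-conjugating enzyme. PJA1 (-0.81), a ligase that binds MAGED1, and the apoptosis inhibitor XIAP (-0.81), another MAGED1 partner, were also lower. Without ΔNp63α replicate 2 or ΔNp63α replicate 3, 0 were higher, and without vector replicate 3, 3 were lower. In the knockdown 8 of 36 were higher and 1 lower, with a median of 0.45 against 0.25 for all genes, and ZBTB1 (1.11), USP7 (1.02), EP300 (1.02) and HUWE1 (0.98) led the higher ones. The higher share in the knockdown was 22.2%, against 15.1% of all genes. After rescaling 4 were higher and 2 lower, against 480 and 886 of all 12635 genes tested.

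Genes of DNA methylation and of the silencing of cancer-testis promoters were chosen for what is known of MAGEA1 control. In the knockdown 14 of 44 were higher and 0 lower (31.8% higher, against 15.1% of all genes), with a median log2 fold of 0.56. After rescaling 6 were higher and 0 lower, after quantile normalization 5 and 0, and without shPRMT5 replicate 2 0 were called in either direction. Of all 12635 genes tested, 480 were higher and 886 lower after rescaling, and 400 and 565 after quantile normalization. In this list the highest folds were those of the dioxygenase TET3 (1.25) and the glycosylase TDG (1.16), which act in removing DNA methylation. EZH2 (1.11) and PCGF6 (1.08) of Polycomb complexes followed. Under ΔNp63α, where MAGEA1 was low, 1 of 46 was higher, TDG (1.02), and 2 were lower, among them the histone methyltransferase SUV39H1 (-0.58). That is 2.17% higher and 4.35% lower, against 7.34% and 14.1% of all genes.

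Of 19 tested Ets and SP1 family factors, 7 were lower and 0 higher under ΔNp63α. That is 36.8% lower, against 14.1% of all genes, and 7.34% of all genes were higher. The median log2 fold of these factors was -0.22, against -0.04 for all genes. The lower ones included ELK3 (-1.84), ELF3 (-1.61), ETS2 (-1.24) and ETV4 (-1.12). In the knockdown ETV4 was also lower (-1.18, limma adjusted p = 0.000527), while ELF1 (0.89), SP1 (0.89) and ETS1 (0.87) were higher, 3 of 19 against 1 after rescaling. The higher share there, 15.8%, was near the 15.1% of all genes, and after rescaling 480 of all 12635 genes were higher.

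Of 16 genes that present peptides of such antigens, 8 were called lower and 0 higher under ΔNp63α, against 14.1% of all genes called lower, with a median of -0.58. CANX (0.04, limma adjusted p = 0.894) and NLRC5 (-0.34, limma adjusted p = 0.312) were among those not called. Among those with the lowest folds were TAPBP (-1.02), the tapasin gene, HLA-C (-0.95) and the trimming peptidase ERAP1 (-0.82). In the knockdown 11 of 16 were listed, and 5 were higher and 0 lower, CANX (1.23), NLRC5 (0.82), ERAP1 (0.78) and PDIA3 (0.58) leading them, with 1 left after rescaling. Of all genes 15.1% were higher there, and 480 of 12635 after rescaling. Without shPRMT5 replicate 2, 0 genes of these 5 lists were called higher in the knockdown, so the calls of all 18 named as higher there were lost. Of those named as lower under ΔNp63α, leaving out 1 library ended the call of LEMD1 (ΔNp63α replicate 1), SPAG9 (ΔNp63α replicate 1 or vector replicate 3), SUV39H1 (ΔNp63α replicate 2, ΔNp63α replicate 3 or vector replicate 3) and XIAP (vector replicate 3).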

How the data were processed

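RNA-seq libraries of UM1 were grouped by their titles. The values are TPM as deposited by the authors, 1 table for each experiment. Per the submitters' processing notes, GRCh37 and hg19 were the builds, and the tools included featureCounts, Bowtie, DESeq2 1.24.0 and FastQC, none with a role given. The sources used here do not give the tool that made the TPM. The labels' protocols do not state strandedness. The knockdown table lists 16237 genes, 0 of them mitochondrially encoded, and that of the overexpression lists 16137 genes, 16 of them mitochondrially encoded, with 18.3% to 26.5% of the TPM. TPM keeps no depth, so absolute depth is unknown and no counting interval is given. The labels name no batch.

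Each table was fitted alone with limma 3.58.1 in R 4.3.3 on log2(TPM + 1), keeping genes whose TPM averaged 1 or more (12635 and 13382 genes), with an intensity trend. Tests were two-sided, with calls at a Benjamini-Hochberg adjusted p under 0.05 over all genes of a table. The pseudocount shrinks the folds of low genes. The step was tested on simulated data. Members and gene lists were chosen with earlier results of these data known. Named genes were all MAGE and X-linked cancer-testis genes tested, up to 4 called genes with the largest fold per list, the nearest genes in pattern and the neighbours of MAGEA1 in rank or on the chromosome; a few of these are not reported here. Alternatives tried were no filter or a minimum mean of 5 TPM, a pseudocount of 0.1, quantile normalization, median-of-ratios rescaling, a fit with no intensity trend, a replicate block and leaving out each library. Leaving out mitochondrially encoded genes and the X-chromosome windows were added after seeing the data. Python 3.11.15, pandas 2.3.3, NumPy 2.4.6 and Matplotlib 3.10.9 were used.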

Additional observations from a re-analysis of the deposited data

How the results depend on the processing

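In the knockdown the MAGEA1 log2 fold stayed positive in all 11 alternatives and was called in 6. It lost its call after median-of-ratios rescaling (0.28), quantile normalization (0.45) and with no intensity trend (0.55), and ranged from 0.52 to 0.58 with each library left out. MAGEA4 gained a call after rescaling (-0.56) and ranged from -0.37 to -0.22 with each library left out. MAGED2 ranged from -0.13 to 0.007, turning positive without shGFP replicate 1. The MAGEA1 log2 fold under ΔNp63α was -4.71 with a pseudocount of 0.1. The 2344 genes called in the knockdown became 993 with no filter, 1366 after rescaling, 965 after quantile normalization and 1153 with no intensity trend, and 324 to 3101 with each library left out, with 324 on leaving out shPRMT5 replicate 2 and 1135 on leaving out shPRMT5 replicate 1. The share of calls that were higher was 81.2%, against 35.1% after rescaling and 41.5% after quantile normalization. The 2875 calls under ΔNp63α ranged from 1576 to 3207 with each library left out, the lowest without vector replicate 3 and 1728 without ΔNp63α replicate 3, and the share higher was 34.2%, against 44.7% after rescaling and 47.9% after quantile normalization. Sign changed in the knockdown for AMPD3 after rescaling (-0.20), quantile normalization (-0.29) and without a library (-0.001 to 0.092), for ANXA10 (-0.15, -0.20, and -0.35 to 0.57 without a library) and for BHLHE40 (-0.11 and -0.042). Of the other named genes' results, 852 kept direction and side of the threshold, 108 lost and 11 gained a call.

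With the replicate number as a block, 3486 genes were called in the knockdown and 3889 under ΔNp63α, and no member's call changed; in the knockdown CSAG3 (limma adjusted p = 0.022) and DMRT1 (limma adjusted p = 0.0269) gained a call. Same-numbered libraries deviated together with correlations of 0.0866 in the knockdown and 0.324, 0.231 and 0.0858 under ΔNp63α, and vector replicate 3 correlated best with ΔNp63α replicate 2 (0.137), so the numbers were not taken as pairs. TPM without depth limits the reading of genes near 1 TPM, among them MAGEB2 under ΔNp63α.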

Other observations

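DMRT1, a regulator of germ cells, was higher under ΔNp63α (log2 fold 0.88, limma adjusted p = 0.0164; not called without ΔNp63α replicate 2), with 10.9 ± 2.89 TPM under ΔNp63α and 5.46 ± 1.21 TPM under vector (SD, n = 3 each). In the knockdown it was at 2.65 ± 0.263 TPM under shPRMT5 and 1.08 ± 0.0973 TPM under shGFP (SD, n = 2 each; log2 fold 0.81, limma adjusted p = 0.0525), and was called with no intensity trend. DMRT1 and MAGEA1, both read in the germ line, thus lay on opposite sides under ΔNp63α.

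The tables, normalized separately, list NSMCE3, a MAGE gene, at very different levels. It stood at 0.207 and 0.398 TPM under shPRMT5 and at 0.194 and 0.241 TPM under shGFP, but at 10.8 to 13.8 TPM under ΔNp63α and at 11.8 to 17.9 TPM under vector. MAGEA1, MAGEA4 and MAGED2 did not show such a gap between the shGFP and vector libraries. No test was made across the tables.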
